A study of Mus musculus with 6 samples.

Results

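Opposite-strand RNAs were examined in whole retina of mice injected with saline or microbeads. These are transcripts that take the name of a gene on the other DNA strand with the ending os or os and a digit, such as *Six3os1* for *Six3*. Of 264 symbols in the count table with that ending, 26 had no partner symbol (*Fos* and *Nos1* among them), and 75 of the remaining 238 had fewer than 10 counts summed over the 6 libraries. The other 163, of 31169 genes in the table, were kept with their 151 different partners, and 22 of them shared a partner with another. The members were thus chosen by the sum of their counts. The lowest inside were *Arhgap27os3* and *Dnmt3bos*, each with 10 counts, while *Saxo1os*, *Tspan32os*, *Adap2os*, *Tmcc3os* and *Nphs1os* lay just outside with 9.

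Most such RNAs are long noncoding transcripts. They can start from the same promoter region as the partner and run the other way, start inside the partner, or run into its far end. Some are known to act on the partner's chromatin or messenger RNA, many have no known role, and a few encode a protein of their own. In the retina several eye-field and photoreceptor transcription factor genes, such as *Six3*, *Otx2*, *Rax*, *Vax2* and *Crx*, have one.

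The retinas came from male C57BL/6 mice that were 2 months old, 4 weeks after injection into the anterior chamber at 1 month of age. Saline was injected in 3 and microbeads of 15 μm, which raise intraocular pressure, in 3, with no allele or other treatment named for either group. The titles carry a different tag for each sample but do not state that the retinas came from different mice, so p-values measure the spread between these samples. Whole retina was used, so fewer cells of a type and less RNA per cell cannot be told apart. Rod markers led the cell type lists in every library, with summed levels of 52370 to 78747 counts per 1000000 (CPM). The summed horizontal cell markers alone did not overlap between the groups, at 97.6 to 149 CPM after saline and 54.0 to 93.0 CPM after microbeads, and 1 of the 4 (*Onecut2*) was lower by the test below. Their part in the results was not tested.

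Several features of the libraries bear on the results. Totals ran from 36085737 to 46481382 counts after saline and from 13574949 to 19834366 after microbeads. The library names in the sample descriptions form one series for saline and another for microbeads, so that injection and library series cannot be told apart. Mitochondrial genes took 3.19% to 3.57% of counts after saline and 8.90% to 10.6% after microbeads, and the part of this in the differences below was not tested. Saline replicate 3 stood apart: it was the lowest of the saline libraries for 103 of the 163 RNAs, against 60 of their 151 partners. Its lens markers summed to 254 CPM, and to 0.850 and 18.9 CPM in saline replicates 2 and 1. Saline replicate 1 held ganglion cell markers at 327 CPM, against 959 and 1236 CPM in the others. The main counts below are therefore also given without saline replicate 3.

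By position in GENCODE vM21 (GRCm38), all 163 RNAs lay on the strand opposite to the partner, and all partners were protein-coding. The exons of 98 pairs overlapped. In 29 others the RNA overlapped the partner's body with its exons apart, 30 ran away from the partner without overlap, and 6 ran toward it. The start lay within 1000 bases of the partner's start in 56. The annotation called 135 of the RNAs antisense, 9 lincRNA and 8 protein-coding, among them *Chd3os*, *Slc7a6os*, *Wdr83os*, *Crxos*, *Ccpg1os*, *Cebpzos* and *Toporsos*. The study's methods name a stranded library kit, but whether reads were counted by strand is not given in the sources used here. For the 98 pairs with shared exon sequence the counts of RNA and partner may therefore not be fully separated. The median share of the RNA's exon bases that lay in exons of the partner was 12.6% among these 98. The limit is not confined to them, since exons of other annotated genes can also cover an RNA. With any gene counted, the share was 15.7% for *Vax2os*, 20.2% for *Brip1os*, 15.7% for *Rab26os* and 23.9% for *Tmem147os*, all outside the 98. It was 51.3% for *Tomm6os*.

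For 4 pairs that share a promoter and are described below, the stretch between both starts is shown from the RefSeq table (GRCm38.p6), which held a promoter for 106 of the 163 RNAs and for 122 of the partners. Each line reads 5′ to 3′ along the strand of the opposite-strand RNA. Capitals mark the bases between the partner's start and the RNA's start, and the 25 lower-case bases at the left and right end are the first bases of the partner (as their complement) and of the RNA. The regions were chr10:94688589-94688814 for *Cep83os* (minus strand), chr11:17953851-17953994 for *Etaa1os* (plus strand), chr13:48968036-48968136 for *Fam120aos* (plus strand) and chr9:72985352-72985528 for *Ccpg1os* (minus strand).
*Cep83os*: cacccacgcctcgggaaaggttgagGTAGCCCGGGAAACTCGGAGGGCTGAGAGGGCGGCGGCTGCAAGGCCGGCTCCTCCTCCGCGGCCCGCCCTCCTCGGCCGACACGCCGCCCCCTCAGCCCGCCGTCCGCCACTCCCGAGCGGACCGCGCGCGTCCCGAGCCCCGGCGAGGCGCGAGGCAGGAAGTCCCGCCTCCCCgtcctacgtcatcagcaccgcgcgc
*Etaa1os*: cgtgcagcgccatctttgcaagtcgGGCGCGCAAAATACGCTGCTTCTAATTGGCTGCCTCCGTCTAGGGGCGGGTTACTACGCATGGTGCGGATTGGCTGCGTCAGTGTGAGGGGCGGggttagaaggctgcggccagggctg
*Fam120aos*: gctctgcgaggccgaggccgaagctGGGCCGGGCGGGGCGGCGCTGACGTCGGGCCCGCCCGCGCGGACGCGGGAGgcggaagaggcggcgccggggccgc
*Ccpg1os*: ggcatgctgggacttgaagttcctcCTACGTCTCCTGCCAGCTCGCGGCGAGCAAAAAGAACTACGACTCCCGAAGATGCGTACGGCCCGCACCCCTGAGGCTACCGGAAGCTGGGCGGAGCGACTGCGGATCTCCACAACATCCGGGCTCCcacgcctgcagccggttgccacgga
The starts of *Cep83os* and *Cep83* were thus 176 bases apart in RefSeq, those of *Etaa1os* and *Etaa1* 94, of *Fam120aos* and *Fam120a* 51, and of *Ccpg1os* and *Ccpg1* 127, all within the 300 bases of a single promoter window. GENCODE sets some of these starts elsewhere, and gives gaps of 77, 94, 269 and 46 bases for the same pairs. The windows of RNAs that start within 1000 bases of the partner held a median of 23.5 CG pairs, against 5 for RNAs that start farther away and 7 over all RefSeq windows.

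Most opposite-strand RNAs were scarce. The mean level over the 6 libraries had a median of 0.636 CPM, and ran from 0.0497 CPM to 256.8 CPM for *Vax2os*. Of the 163, 70 reached 1 CPM and 18 reached 10 CPM. Per kilobase of exon, 140 were below their partner and 23 above, with a median level of 8.72% of the partner's. The highest relative to the partner were *Brip1os*, at 2.46 against 0.0249 CPM per kb for *Brip1*, a DNA repair helicase, then *Ccpg1os* and *Ccdc142os*. *Ccpg1* and *Ccdc142* were themselves scarce, at 0.152 and 0.0823 CPM per kb. The lowest relative to the partner were *Uchl1os*, at 0.0814 against 110.7 CPM per kb for *Uchl1*, a neuronal deubiquitinase, then *Fam219aos* and *Grip1os1*. *Crx*, the cone-rod homeobox gene, stood at 391.7 CPM per kb and *Crxos* at 8.94. The scatter of levels per kilobase shows the spread.

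**Figure D1:**
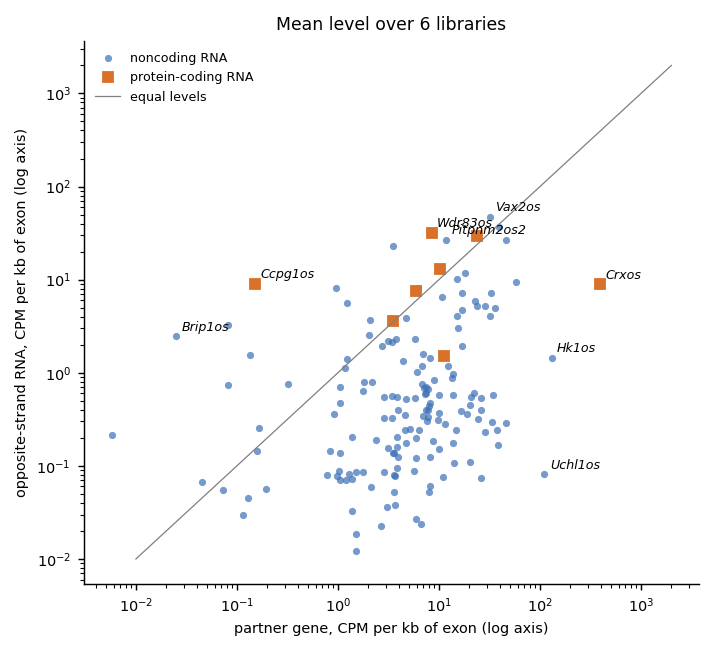
Mean level of each opposite-strand RNA (vertical axis) against its partner gene (horizontal axis), both in CPM per kb of exon on log axes, for 163 pairs. Of these, 140 lie under the line of equal levels; squares are the 8 RNAs annotated as protein-coding.

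After microbead injection, opposite-strand RNAs shifted upward. Of the 163, 104 passed the filter on low counts and were tested, and 15 of these (14.4%) had an adjusted p under 0.05 in edgeR's quasi-likelihood test, all 15 higher and 0 lower. Over all 17707 genes tested, 12.8% passed, 6.46% higher and 6.31% lower. At an unadjusted p under 0.05, 27 of the RNAs were higher and 2 lower (*Cep83os* and *Dnm3os*). The median log2 fold change was 0.42, against -0.03 over all genes, and 78 of the 104 lay above 0 (75.0%, against 47.9%). Of the 15, 14 had enough counts to be tested in either group alone, and 1 (*Kif16bos*) passed through the microbead libraries only. Of the 104, 20 passed through the microbead libraries only (median 0.52), 9 through saline only (-0.52) and 14 through a mix (-0.15). The filter thus favoured a sign in some of them. The 61 that passed through both groups had a median of 0.61, against -0.04 over all 14931 such genes.

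The upward shift was shared with other noncoding genes. Among 552 antisense genes that were not members, 12.1% were higher by the same test and the median log2 fold change was 0.69, against 12.5% and 0.39 for the 80 antisense members tested. Among 559 other lincRNA genes, 13.8% were higher, with a median of 0.68. Among 14560 other protein-coding genes, 5.77% were higher and the median was -0.07. No test of these differences was made.

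The number of calls depended on the libraries included, while the fold changes stayed of similar size. In the 6 fits that left out 1 library the median log2 fold change ran from 0.39 to 0.69, and each of the 15 kept at least 0.895. Without saline replicate 3, 11 of 103 RNAs passed, 10 higher, all 10 among the 15, against 4.32% of all genes higher, and the median was 0.39. Without saline replicate 1, 18 of 101 RNAs passed, as did 2621 of 17321 genes, and the median of the RNAs was 0.69. *Dnm3os* was the other call without saline replicate 3, lower by 3.77 on the log2 scale (edgeR adjusted p = 0.0156). Calls over all genes fell in the other fits too. Leaving out microbead replicate 1 left 5 of 125 RNAs and 748 of 19211 genes. Without microbead replicate 2 these were 7 of 117 and 768 of 19138. Without saline replicate 2 they were 2 of 104 and 293 of 17424, and without microbead replicate 3 they were 0 of 126 and 46 of 19313. *Pitpnm2os2* and *Ccpg1os* passed in 5 of the 6 fits that left out 1 library, whereas *Kif16bos* and *Lrp8os3* passed in 0.

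**Figure D2:**
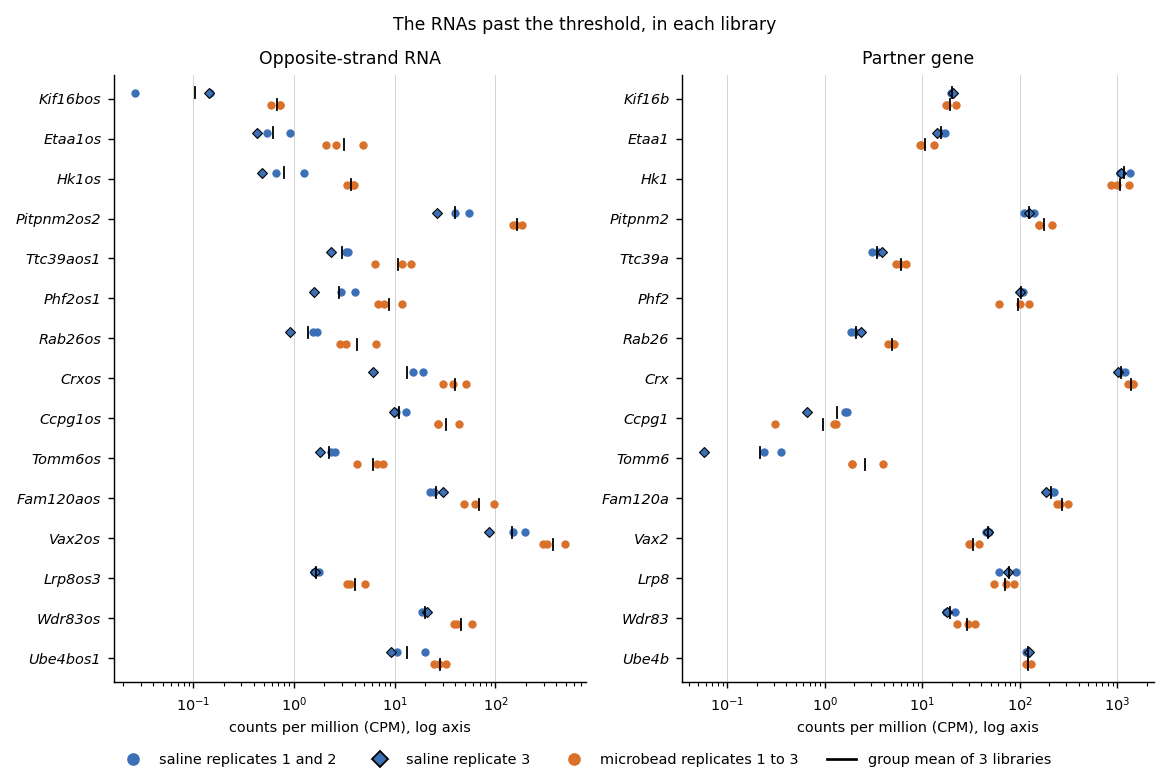
Level in each library, in CPM on a log axis, of the 15 opposite-strand RNAs past the threshold (left) and of their partners (right). Points are libraries, diamonds are saline replicate 3 and bars are group means of 3 libraries; every microbead point of an RNA lies right of its saline points, and the groups overlap for 6 of the 15 partners.

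For all 15, every microbead library lay above every saline library, as the plot of levels by library shows. Over all genes tested the groups did not overlap in 37.8%, but the 15 were picked by a test of this same difference, so their separation is a description only. The fold changes ran from 2.14 to 6.17, with a median of 2.95. Saline replicate 3 was the lowest saline library for 11 of the 15.

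The most abundant was *Vax2os*, which starts inside *Vax2*, the ventral eye homeobox gene. *Vax2os* stood at 197, 150 and 87.0 CPM after saline and at 486, 327 and 295 CPM after microbeads. It alone made up 13.4% to 30.4% of all CPM of the 163 RNAs. The log2 fold change was 1.35 ± 0.31 (SE; edgeR adjusted p = 0.0258), and 1.09 without saline replicate 3 (edgeR adjusted p = 0.0328). *Vax2* itself was at 48.1, 44.8 and 46.7 CPM after saline and 38.2, 30.1 and 30.7 CPM after microbeads, without overlap, with a log2 fold change of -0.49 (edgeR adjusted p = 0.0818). Without *Vax2os* and *Pitpnm2os2*, the RNAs together summed to 538 to 691 CPM after saline and 831 to 929 CPM after microbeads.

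*Pitpnm2os2* had the smallest adjusted p of the 163. It lies inside *Pitpnm2* with its exons apart from those of *Pitpnm2*, a phosphatidylinositol transfer protein gene of the family of the fly retinal degeneration B gene. Its level was 54.6, 39.2 and 26.1 CPM after saline and 183, 148 and 161 CPM after microbeads, a log2 fold change of 2.04 ± 0.26 (SE; edgeR adjusted p = 0.00681). *Pitpnm2* stood at 111 to 140 CPM and 156 to 211 CPM, with a log2 fold change of 0.49 (edgeR adjusted p = 0.11).

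The RefSeq windows of these RNAs are shown because they are the most abundant of the 15 and start outside the partner's promoter window. Each holds 250 bases before the start and 50 from it on. Capitals mark CCAAT or its reverse complement ATTGG in *Vax2os* (chr6:83712152-83712451, minus strand). In *Pitpnm2os2* (chr5:124194650-124194949, plus strand) they mark TAATCC, the core bound by CRX and OTX2, or its reverse complement GGATTA.
*Vax2os*: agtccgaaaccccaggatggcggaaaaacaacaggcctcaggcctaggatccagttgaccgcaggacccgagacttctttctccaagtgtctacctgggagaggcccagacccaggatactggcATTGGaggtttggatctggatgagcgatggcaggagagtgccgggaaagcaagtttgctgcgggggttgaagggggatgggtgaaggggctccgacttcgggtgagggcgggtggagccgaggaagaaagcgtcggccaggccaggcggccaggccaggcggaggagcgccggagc
*Pitpnm2os2*: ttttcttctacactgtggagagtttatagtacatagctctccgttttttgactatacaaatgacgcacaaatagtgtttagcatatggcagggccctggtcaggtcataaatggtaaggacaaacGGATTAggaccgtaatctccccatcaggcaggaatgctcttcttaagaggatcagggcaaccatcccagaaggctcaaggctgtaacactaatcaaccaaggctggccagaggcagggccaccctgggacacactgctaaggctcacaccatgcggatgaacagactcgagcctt
Searched on both strands, TAATCC was in 10.9% of the 137 windows of opposite-strand RNAs and in 7.06% of all 32851 RefSeq windows, CCAAT in 29.9% and 37.4%, and TATAAA in 5.11% and 13.6%. Of the 18 windows that belong to 13 of the RNAs past the threshold, TAATCC was in 1 (5.56%), that of *Pitpnm2os2*. CCAAT was in 8 of these 18 (44.4%) and TATAAA in 2 (11.1%). These matches are letters in a window and not sites of binding.

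Of the 8 protein-coding members, all were tested and above 0, and 3 rose (37.5%). Among 14560 other protein-coding genes tested, 44.9% were above 0 and 5.77% rose. With only 8 such members, this difference was not tested. *Wdr83os*, whose product is part of the membrane protein insertion machinery of the endoplasmic reticulum, went from 20.6, 18.7 and 20.9 CPM to 57.8, 38.9 and 41.1 CPM (log2 fold change 1.20 ± 0.20 SE, edgeR adjusted p = 0.0138). *Ccpg1os* went from 12.8, 10.3 and 9.87 CPM to 43.0, 26.9 and 27.2 CPM (1.56 ± 0.24, edgeR adjusted p = 0.0111). The saline libraries of both lay close together, saline replicate 3 included, and the microbead libraries were apart from them. Of the exon bases of *Wdr83os*, 52.3% lay in exons of *Wdr83*, so their counts may not be fully separated. *Wdr83* was at 21.7, 17.5 and 17.9 CPM after saline and 34.3, 22.4 and 29.1 CPM after microbeads, without overlap (log2 fold change 0.59, edgeR adjusted p = 0.0906). *Crxos* went from 18.9, 15.1 and 6.13 CPM to 29.9, 38.1 and 50.5 CPM (1.56 ± 0.37, edgeR adjusted p = 0.0297), and 1.22 without saline replicate 3 (edgeR adjusted p = 0.0231). Here saline replicate 3 was lowest by more than the gap between the others. *Crx*, at 1018 to 1181 CPM and 1268 to 1441 CPM, had a log2 fold change of 0.34 (edgeR adjusted p = 0.202).

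Of the other RNAs past the threshold, *Fam120aos*, *Etaa1os*, *Ttc39aos1* and *Lrp8os3* ran away from a partner whose start lay within 1000 bases. *Fam120aos* went from 22.5, 24.6 and 29.8 CPM to 96.8, 48.5 and 61.9 CPM (log2 fold change 1.43 ± 0.26, edgeR adjusted p = 0.0152), with its highest saline level in replicate 3. *Etaa1os*, beside *Etaa1*, whose product activates the ATR kinase at damaged DNA, went from 0.903, 0.539 and 0.428 CPM to 4.79, 2.09 and 2.60 CPM (2.34 ± 0.50, edgeR adjusted p = 0.0221). *Ttc39aos1* went from 3.27, 3.44 and 2.31 CPM to 6.33, 11.7 and 14.6 CPM (1.85 ± 0.35, edgeR adjusted p = 0.0168). Every microbead library of these RNAs was above the saline ones, by the widest fold for *Etaa1os*. *Lrp8os3*, beside the reelin receptor gene *Lrp8*, went from 1.78, 1.58 and 1.63 CPM to 3.60, 3.32 and 5.07 CPM (1.27 ± 0.35, edgeR adjusted p = 0.0432). In none of these pairs did the partner pass. The remaining 6 were *Kif16bos* (2.63), *Hk1os* (2.21), *Phf2os1* (1.64), *Rab26os* (1.63), *Tomm6os* (1.46) and *Ube4bos1* (1.10), given by log2 fold change. *Kif16bos* was the largest of all 15, from 1, 7 and 5 counts after saline to 14, 10 and 9 after microbeads. *Hk1os* lies inside *Hk1*, the gene of hexokinase 1, and stood at 0.485 to 1.25 CPM after saline and 3.32 to 3.96 CPM after microbeads while *Hk1* overlapped between the groups, at 1058 to 1352 and 851 to 1320.1 CPM.

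**Figure D3:**
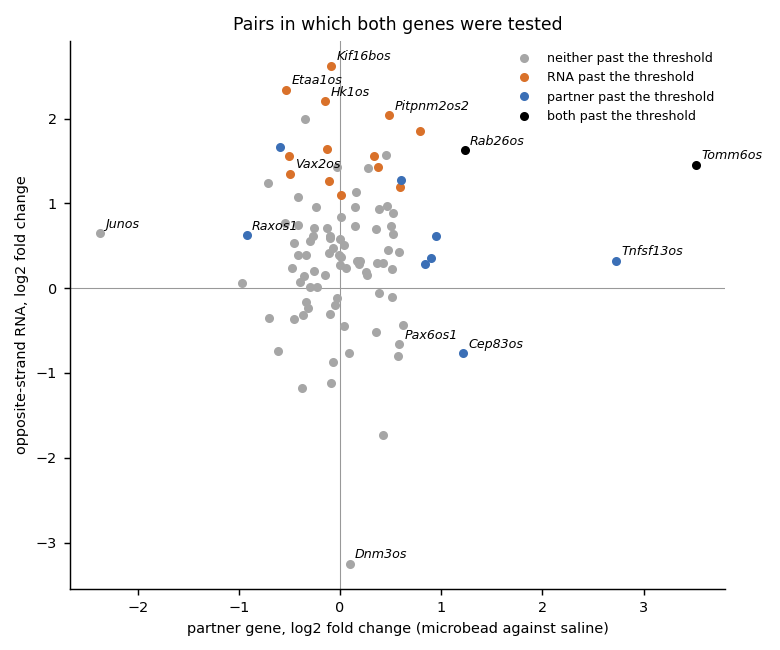
Log2 fold change (microbead against saline) of each opposite-strand RNA (vertical axis) against that of its partner (horizontal axis), for the 100 pairs in which both were tested. Most points lie above the horizontal line, spread to either side of the vertical line, and 2 pairs (black) passed on both strands.

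Among the partners, 142 were tested and 15 passed (10.6%), 10 higher and 5 lower, with a median log2 fold change of -0.04. The share was no higher than the 12.8% over all genes tested. Leaving out saline replicate 3 left 7 calls, saline replicate 2 or microbead replicate 2 left 4 each, microbead replicate 1 left 3 and microbead replicate 3 left 0. Over all genes, these fits left 1480, 293, 768, 748 and 46 calls, in the order named. The plot of paired fold changes shows little relation across the 100 pairs tested on both strands, which had 96 different partners. In 39 pairs both were above 0, in 12 both below, in 38 the RNA was above and the partner below 0, and in 11 the reverse. The sign was thus shared in 51.0%, against 51.4% of 13012 neighbouring gene pairs on opposite strands. Pearson's r was 0.04 and Spearman's rho 0.01 across these pairs, which share the same 6 libraries and are no replicates.

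Both strands passed in 2 pairs. *Tomm6*, a subunit of the mitochondrial import pore, went from 0.239, 0.353 and 0.0571 CPM to 3.91, 1.88 and 1.88 CPM (log2 fold change 3.51 ± 0.66, edgeR adjusted p = 0.0161), and *Tomm6os* from 2.55, 2.34 and 1.80 CPM to 6.59, 4.19 and 7.60 CPM (edgeR adjusted p = 0.0278). *Rab26*, a small GTPase of synaptic vesicles, went from 1.83, 2.03 and 2.37 CPM to 5.15, 4.48 and 5.0 CPM (1.23 ± 0.31, edgeR adjusted p = 0.0343). *Rab26os*, inside it, went from 1.67, 1.53 and 0.913 CPM to 6.54, 2.89 and 3.31 CPM (edgeR adjusted p = 0.0423). Both genes of each pair were thus higher in every microbead library. *Tomm6*, however, passed the filter on low counts through the microbead libraries only, so that a rise in it was favoured by the filter. Without saline replicate 3, the adjusted p was 0.0535 for *Tomm6os* and 0.0813 for *Rab26os*.

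The other 13 partners changed without a call for the RNA. Those higher were *Tnfsf13* (2.73), a B cell survival factor, *Cep83* (1.21), a centriole protein needed for cilia, *Atxn7l1* (1.02), *Cpeb1* (0.95), *Uckl1* (0.89), *Man2c1* (0.84), *Kcnab3* (0.75), a potassium channel subunit, and *Rbm3* (0.61), a cold-induced RNA-binding protein, by log2 fold change. Those lower were *Tmem74b* (-1.38), *Hopx* (-1.05), *Rax* (-0.92), *Rptor* (-0.84), the scaffold of the growth kinase complex mTORC1, and *Appbp2* (-0.59). Several of these calls lay close to the threshold. *Hopx* missed it with RLE scaling (edgeR adjusted p = 0.0532), upper-quartile scaling (edgeR adjusted p = 0.0567), limma-voom (adjusted p = 0.0635) and thinning (edgeR adjusted p = 0.0509). *Rax* missed it with RLE (edgeR adjusted p = 0.0513) and upper-quartile scaling (edgeR adjusted p = 0.0562), and *Rptor* with upper-quartile scaling (edgeR adjusted p = 0.0542). Without the filter, *Rbm3* (edgeR adjusted p = 0.0698) and *Rab26* (edgeR adjusted p = 0.0501) missed it, and *Rab26* also when thinned (edgeR adjusted p = 0.0534). The RNAs of *Kcnab3*, *Hopx*, *Rptor*, *Tmem74b* and *Atxn7l1* were under the filter and not tested, with at most 0.650 CPM in any library. *Uckl1os* was the most abundant of these RNAs, at 95.7, 75.0 and 72.5 CPM after saline and 108, 102 and 100.4 CPM after microbeads (log2 fold change 0.36, edgeR adjusted p = 0.187). *Tnfsf13os* was at 4.81, 3.77 and 0.342 CPM after saline and 1.49, 6.14 and 3.64 CPM after microbeads. Its groups overlapped, and its log2 fold change of 0.32 turned to -0.21 without saline replicate 3.

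The log2 ratio of an RNA to its partner within a library needs no scaling between libraries. In 36 of the 100 pairs (36.0%) this ratio did not overlap between the groups, against 37.9% of neighbouring pairs on opposite strands, so that the share was near the background. The RNA gained on its partner in 31 of the 36. In 25 pairs (25%, against 23.1%) the ratio also moved by more than 1, upward in 22 and downward in 3. The median movement over the 100 pairs was 0.56. Without saline replicate 3, with 3 libraries against 2, 48 pairs (48%) did not overlap, against 46.0% of neighbouring pairs in the same libraries. With 3 libraries a group, the smallest two-sided exact permutation p for a single pair is 0.1, which each pair without overlap had.

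**Figure D4:**
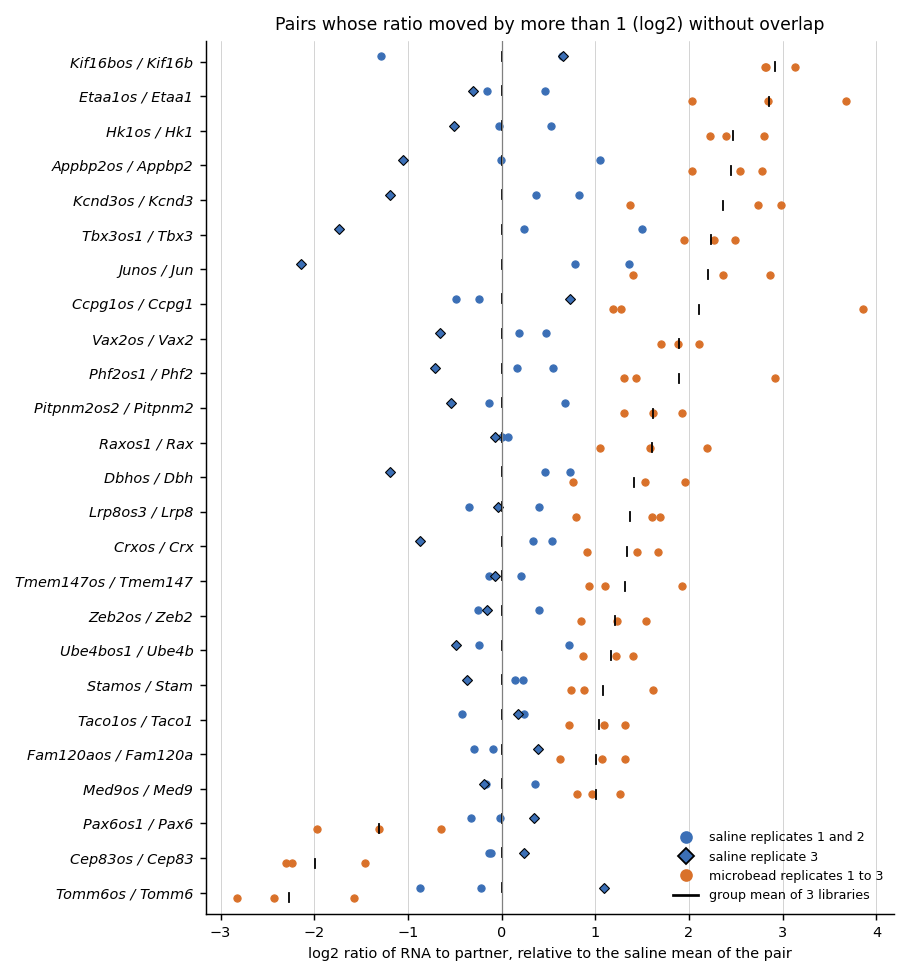
Log2 ratio of RNA to partner in each library, relative to the saline mean of the pair, for the 25 pairs whose ratio moved by more than 1 without overlap. Points are libraries, diamonds are saline replicate 3 and bars are group means; 22 pairs lie to the right of 0 after microbeads and 3 (*Pax6os1*, *Cep83os* and *Tomm6os*) to the left.

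*Cep83os* and *Cep83*, which run apart from the shared stretch printed above, moved in opposite directions. *Cep83os* was at 19.7, 20.5 and 23.0 CPM after saline and 9.37, 15.7 and 12.1 CPM after microbeads, without overlap. Its log2 fold change of -0.77 ± 0.23 missed the threshold (edgeR adjusted p = 0.0571). *Cep83* was at 8.98, 9.46 and 8.19 CPM after saline and 19.5, 18.1 and 24.2 CPM after microbeads (1.21 ± 0.21, edgeR adjusted p = 0.0143). The ratio thus went from above 0 to below it, a movement of -2.0. *Cep83os* passed the threshold with DESeq2 (adjusted p = 0.0238), with limma-voom (adjusted p = 0.0491) and with edgeR without the filter (adjusted p = 0.0217). Without saline replicate 3 its log2 fold change was -0.70 (edgeR adjusted p = 0.116).

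The ratio rose most for *Kif16bos* (2.92), *Etaa1os* (2.85), *Hk1os* (2.47), *Appbp2os* (2.45), *Kcnd3os* (2.36), *Tbx3os1* (2.23), *Junos* (2.21) and *Ccpg1os* (2.11). Of all 25 pairs, 5 RNAs (*Kif16bos*, *Appbp2os*, *Kcnd3os*, *Tbx3os1* and *Taco1os*) passed the filter on low counts through the microbead libraries only, so that a rise in these was favoured by the filter. *Kcnd3os* starts in *Kcnd3*, the gene of a potassium channel of the A-type current, and was at 0.0856 to 0.270 CPM after saline and 0.433 to 1.08 CPM after microbeads (log2 fold change 2.00, edgeR adjusted p = 0.0702). *Tbx3os1* was at 1.75, 1.04 and 0.314 CPM after saline and 2.16, 2.89 and 2.34 CPM after microbeads. For *Junos* the partner varied most: *Jun*, an immediate early transcription factor, reached 480 CPM in saline replicate 3, against 34.2 to 70.2 CPM in the other 5 libraries. The ratio also rose for *Vax2os* (1.90), *Phf2os1* (1.89), *Pitpnm2os2* (1.62), *Raxos1* (1.61), *Dbhos* (1.42), *Lrp8os3* (1.37), *Crxos* (1.34), *Tmem147os* (1.32), *Zeb2os* (1.21), *Ube4bos1* (1.17), *Stamos* (1.08), *Taco1os* (1.04), *Fam120aos* (1.01) and *Med9os* (1.01).

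Of the opposite-strand RNAs, 8 belonged to eye-field and retinal transcription factor genes. *Vax2os* and *Crxos* rose, as given above, and the others did not pass. *Six3os1* was at 62.5, 85.4 and 79.9 CPM after saline and 74.6, 125 and 81.9 CPM after microbeads (log2 fold change 0.30, edgeR adjusted p = 0.397). *Otx2os1* was at 30.8, 20.9 and 15.2 CPM and at 25.5, 27.4 and 28.3 CPM (0.28, edgeR adjusted p = 0.487). The groups of both overlapped, as did those of *Prox1os* (-0.23) and *Lhx1os* (0.06). *Raxos1*, on the strand opposite to *Rax*, which is needed to form the eye, was at 15.9, 12.7 and 10.4 CPM after saline and 17.9, 20.002 and 22.3 CPM after microbeads (0.63 ± 0.22, edgeR adjusted p = 0.0881). *Rax* was at 99.6, 76.1 and 68.7 CPM and at 54.3, 27.5 and 46.9 CPM (-0.92 ± 0.26, edgeR adjusted p = 0.0477). *Rax* and *Raxos1* thus lay without overlap in opposite directions. Of the exon bases of *Raxos1*, 63.0% lay in exons of *Rax*, so their counts may not be fully separated. *Pax6os1* was at 6.43, 7.01 and 10.6 CPM and at 7.10, 5.20 and 2.86 CPM, and *Pax6* at 244 to 331 CPM and 419 to 486 CPM, so that the ratio moved by -1.31 with neither past the threshold (edgeR adjusted p = 0.253 and 0.064). Over the list of 43 such factor genes, 36 were tested, with a median log2 fold change of -0.04. *Neurod1* and *Prdm8* were among those higher, and 5 were lower (*Rax*, *Nrl*, *Sox2*, *Sox9* and *Onecut2*).

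The remaining abundant RNAs did not pass. *Chd3os* was at 45.9 to 67.7 CPM after saline and 57.4 to 77.1 CPM after microbeads, *Slc7a6os* at 23.1 to 38.9 and 30.9 to 37.3 CPM, and *Rab10os* at 19.1 to 35.1 and 34.3 to 38.6 CPM. Their log2 fold changes were 0.21, 0.14 and 0.39 (edgeR adjusted p = 0.514, 0.695 and 0.27). *Brip1os*, the most abundant relative to its partner, was at 15.3 to 20.2 CPM and 12.3 to 16.2 CPM (-0.29, edgeR adjusted p = 0.369).

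By arrangement, the RNAs that ran away from the partner without overlap had the highest median of the 4 arrangements. Of these 30, 24 were tested, 7 rose (29.2%, against 6.46% of all genes tested), and the median log2 fold change was 0.72. Of the 98 with overlapping exons, 62 were tested, 5 rose (8.06%), and the median was 0.44. Among these 62, the 10 that ran into the partner's far end had a higher median of 0.84, and 0 of them passed. Of the 29 that overlapped the partner with exons apart, 14 were tested and the median was 0.04. Of these 14, 3 (21.4%) rose (*Vax2os*, *Pitpnm2os2* and *Rab26os*). The 4 tested of the 6 that ran toward the partner lay above 0 and none passed. The 4 arrangements also differed in abundance, with a median level over all their RNAs of 1.72, 0.574, 0.276 and 5.97 CPM in the order given. The difference between these groups was not tested.

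Arrangement also went with the behaviour of saline replicate 3, as the plot by arrangement shows. The log2 of its CPM over the mean of the other saline libraries had a median of -1.29 for the 53 RNAs inside the partner and of -0.27 for the other 110. For the 30 that ran away from the partner it was -0.15. For the partners of the RNAs inside them it was 0.07. Over all genes of at least 10 counts, it was -0.66 for 1252 antisense genes, -1.63 for 124 sense intronic genes and 0.02 for 16133 protein-coding genes. In all, 23 of the 163 RNAs were at least 4-fold lower there. *Chn1os3* had 65, 74 and 1 counts after saline and 32, 34 and 36 after microbeads, *Grin1os* 108, 161 and 10 and then 25, 45 and 53, and *Prkag2os1* 43, 39 and 0 and then 18, 1 and 6. These 3 were chosen after their values were seen, and none of them passed. The RNAs inside the partner had a median log2 fold change of 0.30 among the 25 tested, and of -0.21 without saline replicate 3.

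**Figure D5:**
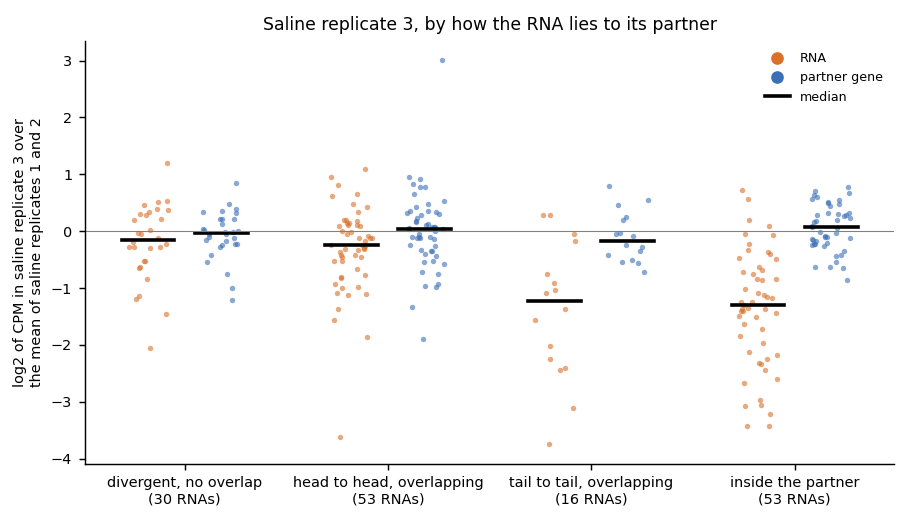
Log2 of the CPM in saline replicate 3 over the mean CPM of saline replicates 1 and 2, for opposite-strand RNAs and partners, by arrangement. Each point is a gene and bars are medians; RNAs inside the partner have a median of -1.29 and their partners of 0.07.

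The largest fall outside the threshold was that of *Dnm3os*, a precursor of microRNAs that lies inside *Dnm3*, named here after its values were seen. It had 298, 248 and 18 counts after saline and 14, 0 and 10 after microbeads. Saline replicate 3 thus lay with the microbead libraries, and the log2 fold change of -3.25 did not pass (edgeR adjusted p = 0.067). Without the filter it did (edgeR adjusted p = 5.64e-05), as did *Srrm4os* (-1.78, edgeR adjusted p = 0.0128), with 328, 486 and 35 counts after saline and 7, 72 and 8 after microbeads. *Fgf2os*, also chosen after its values were seen, stood apart in saline replicate 1, with 1489 counts against 224 and 60, and 322, 213 and 139 after microbeads.

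The 59 RNAs left out by the filter on low counts had 10 to 69 counts in all. In 23 of them every microbead library had at most 3 counts, a level of 0.154 to 0.217 CPM at these depths, and in 5 every saline library had. These limits cover counting error only. The fit without the filter tested all 163 RNAs, of which 16 were higher and 3 lower, and called 3720 of 31169 genes. *Uchl1os* had 1, 1 and 0 counts after saline and 12, 2 and 4 after microbeads. *Fam219aos* had 8, 5 and 0 counts and *Grip1os1* 7, 6 and 0 after saline, and both had 0 in all microbead libraries.

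Related RNAs with other names were compared as well. Of 6 symbols ending in as or ot with a named partner, 1 rose (*Znrd1as*, log2 fold change 1.29, edgeR adjusted p = 0.0184), and 2 of the 6, *Hras* and *Leprot*, are protein-coding genes that share only the ending. Of 13 known retinal long noncoding RNAs, 11 were tested, 2 rose (*Miat* and *Mir124a-1hg*), and the median log2 fold change was 0.98. *Mir124a-1hg*, the host of a neuronal microRNA, was at 820, 507 and 59.1 CPM after saline and 2489, 2464 and 2420 CPM after microbeads (2.41, edgeR adjusted p = 0.0487). Its level in saline replicate 3 was again the lowest of the saline libraries, and it was the lowest saline library for 10 of the 12 listed RNAs in the table.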

How the data were processed

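RNA-seq counts of whole retina, from poly(A) libraries made with a stranded kit, were used for 3 saline and 3 microbead samples, grouped by the labels. Per the labels and the study's methods, the authors ran STAR 2.5.3a against GRCm38.p5 (GENCODE vM12) and featureCounts, and deposited raw counts per gene. The same deposited table holds the authors' DESeq2 comparison (mean signal, log2 fold change, linear ratio, p-values and calls), which was not used. How strand and multiply mapped reads were treated in counting is not given in the sources used here.

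filterByExpr (minimum count 10, minimum total 15) left 17707 genes, which were compared by edgeR's quasi-likelihood test (version 4.0.16, R 4.3.3) after TMM scaling. Tests were two-sided, p-values were adjusted by Benjamini-Hochberg over all genes tested, and the threshold was 0.05. CPM are per TMM-scaled library. Ratios were log2 of count + 0.5 over count + 0.5. The steps were tested on simulated data. At the smallest total, 3 counts are 0.217 CPM, and at the largest 0.0622 CPM, for counting error only.

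Members, lists and named RNAs were chosen with earlier results of these data known. Named were RNAs past the threshold or with such a partner, ratios without overlap that moved by more than 1, the 10 most abundant, those of listed transcription factors, and the 3 highest and 3 lowest relative to the partner. Alternatives were RLE and upper-quartile scaling, other filters, DESeq2 1.42.0, limma-voom (limma 3.58.1), a replicate block, thinning and each library left out. Some items are not reported here.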

Additional observations from a re-analysis of the deposited data

How the results depend on the processing

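The count of 15 opposite-strand RNAs stayed within 13 to 22 under other scalings, filters, tools and thinning to equal depth. Under DESeq2, 21 were higher and 1 lower, under limma-voom 15 and 1, and without the filter 16 and 3, against 15 and 0. Leaving out single libraries, the count ran from 0 to 18, higher calls from 0 to 18 and lower calls from 0 to 1. The 15 partners became 0 to 18 in these fits, and the 2261 genes overall 46 to 2621. Over all genes, DESeq2 called 3582 and edgeR without the filter 3720. The replicate numbers only name samples: deviations of same-numbered samples correlated by -0.035, 0.136 and 0.010, and a fit with the replicate block called 8 RNAs, all higher, 4 partners and 905 genes. The median log2 fold change of the RNAs lay between 0.37 and 0.69 throughout. Pairs without overlap numbered 39 of 100 with a prior count of 2, 28 of 59 (47.5%) with at least 10 counts in every library and 29 of 78 (37.2%) when thinned, against 38.4%, 40.4% and 38.3% of neighbouring pairs. With single libraries left out they numbered 38 to 49 of 100, against 42.2% to 51.0%. With at least 50 summed counts, 105 RNAs are kept.

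Of the values of single genes, 1053 kept their direction and side of the threshold, 147 lost a call, 21 gained one and 24 changed sign, all 24 of genes without a call. *Otx2* (-0.00045) became 0.021 with DESeq2 and with RLE scaling, 0.043 with upper-quartile scaling, 0.0087 with at least 10 counts in every library, 0.0099 with limma-voom, 0.0098 with the replicate block and 0.017 when thinned. *Lhx1os* became -0.015 when thinned and *Ube4b* -0.043 without the filter. With single libraries left out, *Otx2* ran from -0.10 to 0.12, *Lhx1os* from -0.19 to 0.21, *Slc7a6os* from -0.020 to 0.36, *Tnfsf13os* from -0.21 to 0.84, *Ube4b* from -0.058 to 0.043, *Taco1* from -0.024 to 0.28, *Uchl1* from -0.065 to 0.64, *Chd3* from -0.50 to 0.014, *Phf2* from -0.37 to 0.10 and *Lrp8* from -0.27 to 0.046. The cause of these changes was not tested. The filter left out 59 of the scarcest RNAs, and the fit without it tested all 163.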
